A study of Rattus norvegicus with 6 samples.

Results

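The mature products of the miR-132 and miR-212 hairpins were described in medial prefrontal cortex (mPFC) of rats. The members were every entry of the deposited expression table named rno-miR-132 or rno-miR-212, with any arm suffix. This gave 4 mature miRNAs out of 1465 listed, of which 694 were annotated and 771 were predicted by the authors. They are rno-miR-132-3p, rno-miR-132-5p, rno-miR-212-3p and rno-miR-212-5p, the products of both arms of the 2 hairpins. Small RNA libraries came from 3 rats in the chronic mild stress (CMS) group and 3 in the Control group. CMS rats met cage tilt, clip tail, restraint, foot shock, light/dark cycle reversal, cold water swimming and deprivation of food or of water, in random order over 4 weeks. Control rats were undisturbed over the same 4 weeks apart from handling and cleaning. All rats shared the tissue and the protocol, and no source used here gives their strain, sex or age. The p-values measure the spread between these libraries.

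MicroRNAs are cut from hairpin precursors, and each arm of a hairpin (5p and 3p) can give a mature miRNA that lowers the output of messenger RNAs matching its seed, bases 2 to 8 from the 5′ end. In rodent neurons, miR-132 and miR-212 are processed from a shared primary transcript whose promoter binds CREB, a transcription factor switched on by synaptic activity and by the growth factor BDNF. In cultured rat neurons miR-132 promotes dendrite growth through the GTPase-activating protein p250GAP. In rat striatum miR-212 was tied to the control of cocaine intake. The libraries measure the mature miRNAs, so neither CREB nor the primary transcript was measured here, and the link to CREB is background.

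The mature sequences, from RefSeq on the rat build GRCr8, are shown because the 3p arms share a seed and the 5p arms do not. Capitals mark the seed.
rno-miR-132-3p: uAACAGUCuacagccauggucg
rno-miR-212-3p: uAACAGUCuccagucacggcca
rno-miR-132-5p: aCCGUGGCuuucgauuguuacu
rno-miR-212-5p: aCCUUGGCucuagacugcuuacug
The 3p arms share the seed AACAGUC and their bases 1 to 9 from the 5′ end. They are identical at 17 of 22 positions and differ, from miR-132-3p to miR-212-3p and counted from the 5′ end, by A10C, C14U, U17C, U20C and G22A. Among 694 different mature entries of the RefSeq table, no other miRNA has this seed. The 5p arms have different seeds, CCGUGGC and CCUUGGC, and they agree at 14 of the 22 positions compared, the earliest difference being G4U. Each 5p seed occurs in no other entry of that table.

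The miR-132 precursor, at chr10:60522033-60522133 on the + strand of GRCr8, shows where the arms lie. Capitals mark miR-132-5p, which comes first, and then miR-132-3p.
Mir132: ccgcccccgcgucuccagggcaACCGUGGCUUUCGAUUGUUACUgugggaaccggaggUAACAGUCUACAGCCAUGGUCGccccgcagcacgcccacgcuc
The arms are 14 bases apart. On the same strand miR-212-5p lies at chr10:60521771-60521794 and miR-212-3p at chr10:60521811-60521832. In the RefSeq gene table Mir212 and Mir132 are next to each other, between Hic1 and the long noncoding RNA LOC120095261, and 0 other genes overlap either hairpin.

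Values were normalized by the authors and rounded to whole numbers, with library sums of 709674 to 736078, and the number of reads behind them is unknown. Control 1 stood between the groups. Across miRNAs with a mean of at least 10, log2 values of Control 1 correlated with those of CMS 1 at 0.976, of CMS 2 and CMS 3 at 0.987 each, of Control 2 at 0.983 and of Control 3 at 0.986, whereas Control 2 and Control 3 correlated at 0.995. These coefficients are across miRNAs, which are not independent, and they describe the libraries. Neuronal miRNAs were abundant. The summed value of 4 neuronal miRNAs (miR-124-3p, miR-9a-5p, miR-128-3p and miR-129-5p) was 92878 to 100441 in CMS and 82108 to 112030 in Control, while the liver miRNA miR-122-5p was at 6 to 8 in CMS and 6 to 13 in Control. Of the marker lists, only the sum for microglia and blood leukocytes did not overlap, at 652 to 889 in CMS and 497 to 519 in Control. Within that list miR-150-5p did not overlap, at 806, 588 and 727 in CMS, against 432, 427 and 412 in Control. Its other members, miR-223-3p, miR-142-3p and miR-142-5p, overlapped. Some markers of other lists did not overlap either. The neuronal miR-129-5p, miR-145-5p of blood vessels and miR-200b-3p of choroid plexus and ependyma were higher in CMS. From the same list as miR-200b-3p, miR-449a-5p was lower in CMS. Over all miRNAs tested, the groups did not overlap for 170 of 657 (25.9%).

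The most abundant product was miR-132-3p, the arm to which most work on this locus refers. It was at 1389, 987 and 1438 in CMS 1, 2 and 3, against 1003, 1267 and 1349 in Control 1, 2 and 3. The lowest values were those of CMS 2 and Control 1, and the groups overlapped. By level it ranked 65 to 83 among the 457 to 477 annotated miRNAs with a value in a CMS library, and 69 to 78 among 448 to 458 in a Control library. Its partner from the other arm, miR-132-5p, was at 595, 370 and 532 in CMS, against 404, 807 and 786 in Control. Control 2 and Control 3 lay above every CMS library, and Control 1 lay inside the CMS range.

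The miR-212 products were less abundant. The 5p arm, miR-212-5p, was at 306, 227 and 297 in CMS, against 272, 264 and 288 in Control. The 3p arm, miR-212-3p, which carries the shared seed, was at 190, 110 and 237 in CMS, against 150, 148 and 174 in Control. For both arms the 3 Control values lay within the range of the CMS values. In each of the 6 libraries the order was miR-132-3p, miR-132-5p, miR-212-5p and miR-212-3p from high to low. The lowest miR-132-3p value (987) was above the highest miR-132-5p value (807), and the lowest miR-132-5p value (370) was above the highest miR-212-5p value (306). The miR-212 arms met across libraries, since miR-212-3p in CMS 3 (237) exceeded miR-212-5p in CMS 2 (227). Library preparation captures different short RNAs with different efficiency, so levels of different miRNAs on this scale are a relative output; the part of capture in their order was not tested.

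**Figure D1:**
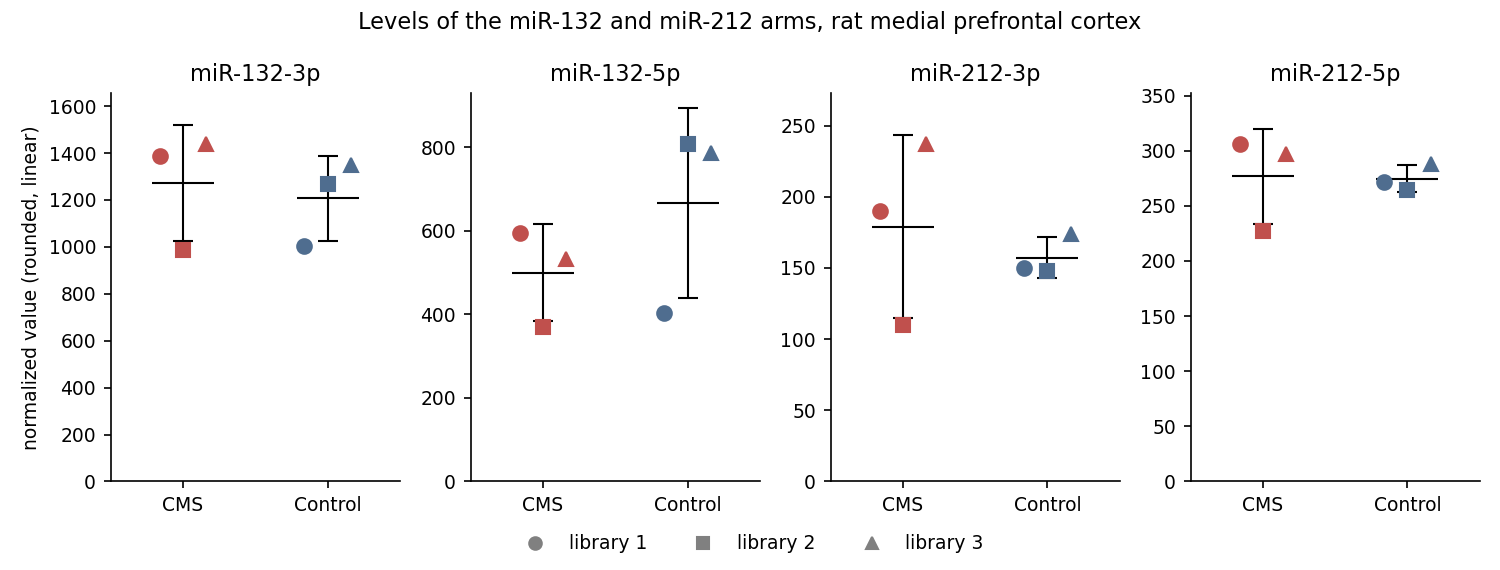
Normalized value (linear axis from 0) of each arm in each library, CMS left of Control. Points are single libraries, and the bar and whiskers are the mean ± SD (n = 3 each). CMS 2 is the lowest CMS library in all 4 panels, and Control 1 is the lowest Control library for both miR-132 arms.

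No arm differed between CMS and Control beyond the spread of the libraries. The mean of miR-132-3p was 1271 ± 247 in CMS and 1206 ± 181 in Control (mean ± SD, n = 3 each). For miR-132-5p it was 499 ± 116 in CMS and 666 ± 227 in Control, for miR-212-3p it was 179 ± 64.2 in CMS and 157 ± 14.5 in Control, and for miR-212-5p it was 277 ± 43.2 in CMS and 275 ± 12.2 in Control. In limma-trend on log2(value + 1), fitted over 657 miRNAs with Benjamini-Hochberg adjustment over all of them, 0 of the 4 passed an adjusted p of 0.05 and 0 had an unadjusted p under 0.05. Of all miRNAs tested, 27 passed (4.11%), 22 higher and 5 lower in CMS, and 153 had an unadjusted p under 0.05. The count of 27 was unstable, at 2 without CMS 1, 8 without CMS 2, 5 without CMS 3, 55 without Control 1, 13 without Control 2 and 9 without Control 3. All 4 arms passed the filter on low values, with values well above 1 in all 6 libraries. The values of the groups overlapped for 4 of 4 arms, and they did not overlap for 170 of the 657 miRNAs tested (25.9%).

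The log2 change of miR-132-3p was 0.07 ± 0.20 (SE), CMS minus Control, with a 95% interval from -0.42 to 0.55 (limma adjusted p = 0.880). As a ratio of CMS to Control, that interval runs from 0.75 to 1.46. For miR-132-5p the log2 change was -0.38 ± 0.33, with an interval from -1.19 to 0.44 (limma adjusted p = 0.520), or a ratio from 0.438 to 1.36. For miR-212-3p it was 0.12 ± 0.29, with an interval from -0.60 to 0.84 (limma adjusted p = 0.853), or a ratio from 0.659 to 1.79. The tightest estimate was that of miR-212-5p, at 0.00 ± 0.15 with an interval from -0.36 to 0.36 (limma adjusted p = 1), or a ratio from 0.779 to 1.28. With all 6 libraries, a doubling thus lay outside the interval of each arm, and a fall by a factor of 2 lay outside for every arm except miR-132-5p. Without Control 1, the interval of miR-212-3p ran from -0.94 to 1.11 and so included a doubling. This was not particular to Control 1. The SE of that change was 0.37 without Control 1 or Control 2 and 0.36 without Control 3 or CMS 1. Without CMS 2 it was 0.15, and without CMS 3 it was 0.27. The median log2 change of all 657 miRNAs was 0.08, and trimmed-mean rescaling of the libraries moved changes by a median of -0.11. With it miR-132-3p was at -0.05, while with quantile normalization miR-212-3p was at -0.02, so that neither has a sign that holds under every scaling.

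Without Control 1, the log2 change of miR-132-5p was -0.70 ± 0.23 (limma adjusted p = 0.138), which also did not pass. In that fit 55 of 645 miRNAs passed (8.53%).

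**Figure D2:**
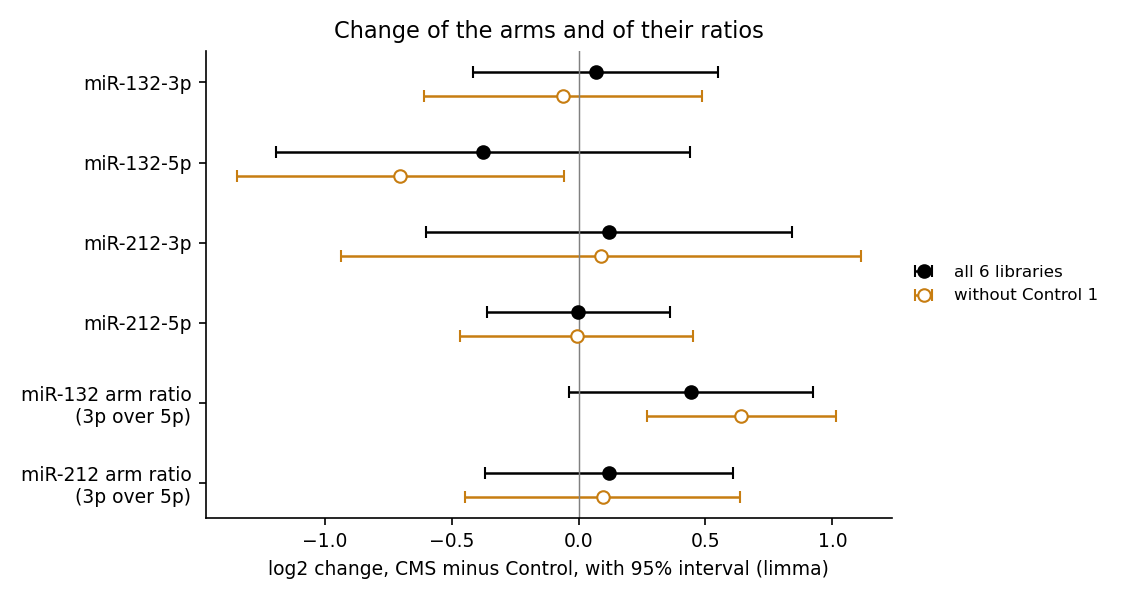
Log2 change (CMS minus Control) of the 4 arms and of the 3p over 5p ratio of both hairpins, with 95% intervals from limma. Filled points use all 6 libraries and open points leave out Control 1. With all libraries every interval includes 0, and without Control 1 those of miR-132-5p and of the miR-132 arm ratio do not.

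The arms differed in how steady they were. The highest library was 1.46 times the lowest for miR-132-3p and 1.35 times for miR-212-5p, against 2.18 times for miR-132-5p and 2.15 times for miR-212-3p. The residual SD on the log2 scale was 0.27 for miR-132-3p and 0.17 for miR-212-5p, against 0.47 for miR-132-5p and 0.41 for miR-212-3p, with a median of 0.22 over the 220 miRNAs whose mean was at least 100. These put miR-132-5p above 93.6% and miR-212-3p above 89.1% of those miRNAs. The spread of miR-132-5p rested largely on Control 1, without which its residual SD was 0.29, near the 0.25 of miR-132-3p. In that fit miR-212-3p was at 0.47 and miR-212-5p at 0.20. In both hairpins the more abundant arm was thus the steadier. The same held for 22 of the 34 hairpins with both arms at a mean of at least 100 (64.7%).

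CMS 2 was the lowest CMS library for 4 of 4 arms. Its deviation from the mean over all libraries, in log2, was -0.31 for miR-132-3p, -0.59 for miR-132-5p, -0.57 for miR-212-3p and -0.27 for miR-212-5p. The median deviation of the 220 miRNAs with a mean of at least 100 was -0.03 in that library, and 108 of them (49.1%) were lowest of the CMS libraries in CMS 2. In Control 1 the miR-132 arms were low, at -0.29 for the 3p arm and -0.46 for the 5p arm, while the miR-212 arms were at -0.12 for 3p and -0.01 for 5p. The median deviation in Control 1 was -0.09, and 113 of the 220 miRNAs (51.4%) were lowest of the Control libraries in Control 1. In CMS 2 all 4 arms were thus low together, and in Control 1 the miR-132 arms were lower than the miR-212 arms.

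**Figure D3:**
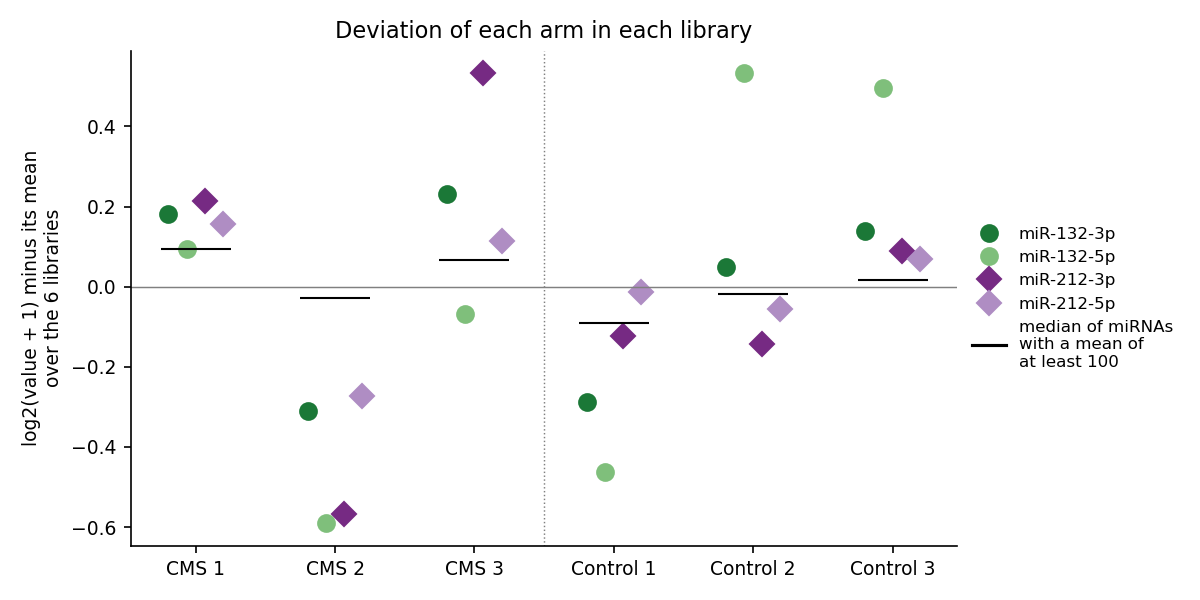
Deviation of log2(value + 1) from its mean over the 6 libraries (vertical axis) for each arm in each library, CMS libraries left of Control libraries. Black bars are the median of the 220 miRNAs with a mean of at least 100. All 4 arms are below -0.25 in CMS 2, and miR-132-5p is at 0.53 in Control 2 and 0.49 in Control 3.

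The hairpins favoured opposite arms. For miR-132 the 3p arm was the higher one in 6 of 6 libraries, with a 3p over 5p ratio of 2.33, 2.67 and 2.70 in CMS, against 2.48, 1.57 and 1.72 in Control. For miR-212 the 5p arm was the higher one in 6 of 6 libraries, with a 3p over 5p ratio of 0.621, 0.485 and 0.798 in CMS, against 0.551, 0.561 and 0.604 in Control. A steady choice of arm was common, since 131 of 144 hairpins with both arms measured (91.0%) had the same arm higher in all 6 libraries, 63 of them the 3p arm and 68 the 5p arm. The mean log2 ratio was 1.13 for miR-132 and -0.74 for miR-212, and over all 144 hairpins 10% lay below -6.94 and 10% above 7.36. Only 22 of the 144 hairpins, miR-212 among them, had a mean log2 ratio within 1 of even, and 31, both among them, within 1.5.

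The arm ratio was tested over the same 144 hairpins. The log2 ratio of 3p over 5p averaged 1.36 in CMS and 0.91 in Control for miR-132, a change of 0.44 ± 0.21 (SE) with a 95% interval from -0.04 to 0.92 (limma adjusted p = 0.177). For miR-212 it averaged -0.68 in CMS and -0.80 in Control, a change of 0.12 ± 0.21 with an interval from -0.37 to 0.61 (limma adjusted p = 0.698). In limma 0 of 2 passed and 0 had an unadjusted p under 0.05, whereas 11 of 144 hairpins passed (7.64%) and 42 had an unadjusted p under 0.05. Without 1 library that count ran from 1, without CMS 1, CMS 2 or Control 3, to 46 without Control 1. The ratios of the groups overlapped for both hairpins, and they did not overlap for 53 of the 144 (36.8%).

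Whether the miR-132 arm ratio passed depended on Control 1. In that library the ratio was 2.48, between those of CMS 1 and CMS 2 and apart from the 1.57 and 1.72 of Control 2 and 3. Without Control 1 the change of the miR-132 arm ratio was 0.64 ± 0.16 with an interval from 0.27 to 1.02, and it passed (limma adjusted p = 0.0253). In that fit 46 of 142 hairpins passed (32.4%), 23 of them higher in CMS, so the miR-132 hairpin was 1 of many. The miR-212 ratio then stood at 0.09 ± 0.23 (limma adjusted p = 0.769). With all libraries, the arm ratio of Control 1 lay nearer to the CMS mean than to the mean of Control 2 and 3 for 81 of the 144 hairpins (56.3%). Among the neuronal markers miR-128-3p, a brain-enriched regulator of excitability, had a like split, at 28999, 16153 and 19969 in CMS, against 18158, 54214 and 54272 in Control. The neuronal marker miR-9a-5p was at 58633, 76696 and 75032 in CMS, against 59815, 53474 and 52742 in Control, so its Control 1 value too lay inside the CMS range and apart from Control 2 and 3. For miR-124-3p, at 2348, 2289 and 2562 in CMS, against 2299, 2059 and 2498 in Control, no such split was seen, and miR-129-5p, at 2898, 3017 and 2878 in CMS, against 1836, 2283 and 2106 in Control, had all 3 Control values below CMS. All 4 markers of the list were measured, and none was at 0; their part in the miR-132 ratio was not tested.

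**Figure D4:**
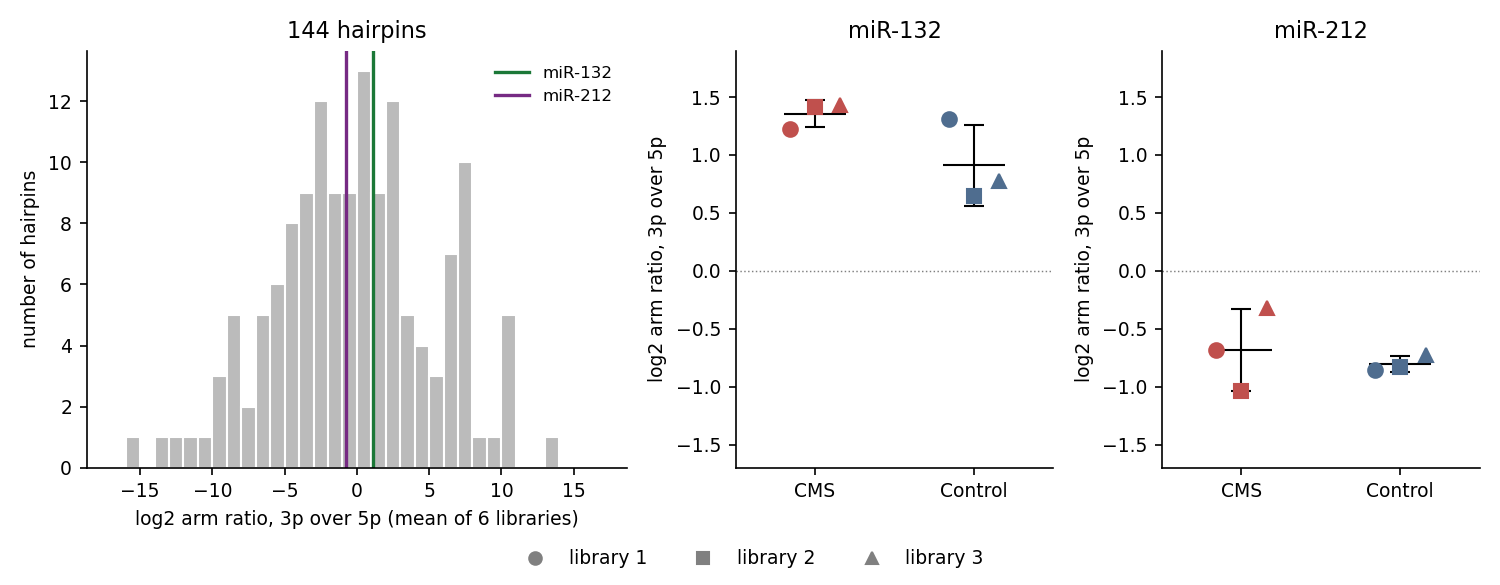
Left, number of hairpins by log2 ratio of 3p over 5p, averaged over the 6 libraries, for 144 hairpins, with vertical lines at miR-132 and miR-212. Middle and right, the same log2 ratio per library, CMS left of Control, with the mean ± SD (n = 3 each); miR-132 is above 0 and miR-212 below 0 in all 6 libraries, and Control 1 is the highest Control for miR-132.

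Together the 4 arms summed to 2480, 1694 and 2504 in CMS, against 1829, 2486 and 2597 in Control, which was 0.239% to 0.352% of the library sum in CMS and 0.248% to 0.359% in Control. The log2 difference of this sum was -0.06, CMS minus Control (exact two-sided permutation p = 0.6, adjusted p = 0.7 over 2 sums, n = 3 per group). With 3 against 3 this test cannot give a p below 0.1. The groups overlapped, with CMS 2 and Control 1 lowest in each. The 3p arms, which carry the same seed, summed to 1579, 1097 and 1675 in CMS, against 1153, 1415 and 1523 in Control, a log2 difference of 0.07 (exact two-sided permutation p = 0.7, adjusted p = 0.7); with trimmed-mean rescaling it was -0.04. Of that shared-seed sum miR-132-3p made up 87.9% ± 2.06 in CMS and 88.4% ± 1.29 in Control (SD, n = 3 each).

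Relative output of the hairpins depended on which arm was read. On the 3p arms miR-132 was 7.31, 8.97 and 6.07 times miR-212 in CMS, against 6.69, 8.56 and 7.75 times in Control. On the 5p arms it was 1.94, 1.63 and 1.79 times in CMS, against 1.49, 3.06 and 2.73 times in Control. The sum of both arms lay between these, at 4.00, 4.03 and 3.69 times in CMS, against 3.33, 5.03 and 4.62 times in Control. In every library the 3p arms put the hairpins farther apart than the 5p arms did.

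The ratio of miR-212 to miR-132 was compared between the groups on the log2 scale with exact two-sided permutation tests. On the 3p arms the difference, CMS minus Control, was 0.05 (exact permutation p = 0.8, adjusted p = 0.8 over 3 ratios). On the 5p arms it was 0.37 (exact permutation p = 0.4, adjusted p = 0.75), and on the sum of both arms 0.13 (exact permutation p = 0.5, adjusted p = 0.75). None was told apart from the spread of the libraries. The CMS libraries stayed close together on the sum of both arms, at a miR-212 to miR-132 ratio of 0.256 ± 0.0127 (SD, n = 3), while the Control libraries were at 0.238 ± 0.0541 (SD, n = 3), from 0.199 in Control 2 to 0.30 in Control 1. These differences moved with the Controls, on the 5p arms from 0.17 without Control 2 to 0.69 without Control 1, and on the sum of both arms from 0.0085 without Control 2 to 0.31 without Control 1.

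As shares of the 4-arm sum, miR-132-3p made up 57.2% ± 1.14 in CMS and 52.6% ± 2.01 in Control (SD, n = 3 each). Its lowest CMS share, 56.0% in CMS 1, was above its highest Control share, 54.8% in Control 1. This share, 1 of 4 looked at after the values were seen, was not tested. Groups that do not overlap were common, at 25.9% of all miRNA levels and 36.8% of the arm ratios of hairpins. The share of miR-132-5p was 22.4% ± 1.44 in CMS and 28.3% ± 5.47 in Control, that of miR-212-5p 12.5% ± 0.788 in CMS and 12.2% ± 2.33 in Control, and that of miR-212-3p 6.49% to 9.46% in CMS and 5.95% to 8.20% in Control. For these 3 arms the shares of the groups overlapped.

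**Figure D5:**
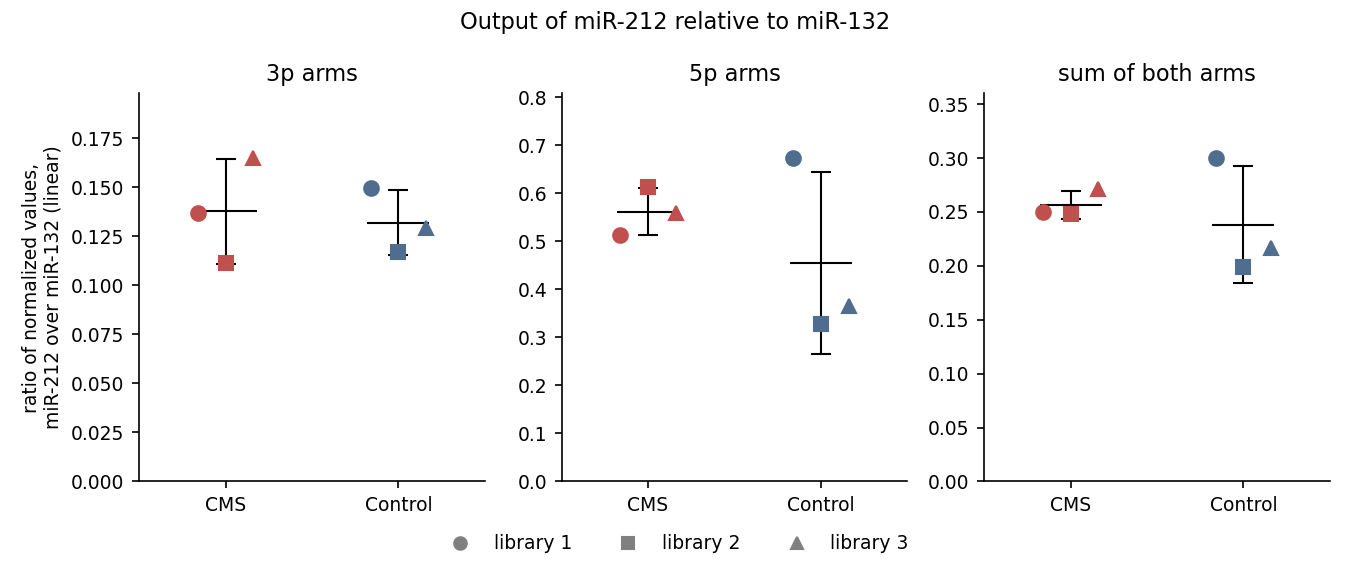
Ratio of miR-212 to miR-132 (linear axis from 0) on the 3p arms, the 5p arms and the sum of both arms, CMS left of Control, with the mean ± SD (n = 3 each). Control 1 is the highest Control library in all 3 panels, and on the sum of both arms the 3 CMS libraries lie between 0.248 and 0.271.

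For miR-132-3p and miR-212-3p, the miRNAs most alike over the 6 libraries were outside the locus, which gave far more candidates than the locus itself. Likeness was measured as the root-mean-square difference of log2(value + 1), centred on each miRNA's own mean, over 343 other annotated miRNAs with a mean of at least 10. The closest to miR-132-3p were miR-135a-5p (0.07), miR-126a-5p, from an intron of the endothelial gene Egfl7 (0.08), the hypoxia-induced miR-210-3p (0.10), miR-27a-3p of the miR-23a cluster (0.11) and let-7b-3p (0.11). The level of miR-135a-5p was 361, 258 and 357 in CMS, against 235, 303 and 308 in Control. Its low libraries were CMS 2 and Control 1, as for miR-132-3p. Among the other members, miR-212-5p lay at 0.13 from miR-132-3p, with only 8 of the 343 nearer, and miR-212-3p at 0.19. The partner arm miR-132-5p lay farthest, at 0.31, close to the median of 0.32 over all 343. With 6 libraries such distances describe these samples and say nothing of shared control.

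The closest to miR-212-3p were miR-339-5p (0.17), the inflammation-induced miR-146a-5p (0.18), the oligodendrocyte miRNA miR-338-3p (0.18), miR-149-5p (0.19) and miR-210-3p (0.19). The level of miR-146a-5p was 415, 273 and 416 in CMS, against 389, 350 and 391 in Control. Again CMS 2 was the lowest library. After these 5 came miR-132-3p, at 0.19, which was nearer to miR-212-3p than was its own partner arm miR-212-5p, at 0.22. The median distance over all 343 was 0.40.

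Other miRNAs tied to neuronal activity or synapses were set beside the locus. Of 30 on a list drawn from general knowledge, 28 were found under their listed names. Of these 28, 0 passed in either direction in limma, against 4.11% of all miRNAs tested. Listed miR-191-5p and miR-182-5p were not counted, since the data hold the names miR-191a-5p and miR-182 instead. Neither miR-191a-5p nor miR-182 passed (limma adjusted p = 0.337 and 0.280). At an unadjusted p under 0.05 there were 10 of the 28, 5 higher and 5 lower in CMS, against 23.3% of all miRNAs. The median log2 change was 0.05 over the 28 and 0.08 over all 657, and 16 of 28 were above 0, against 403 of 657. Among the 28 were miR-135a-5p and miR-146a-5p, named above as close in pattern to miR-132-3p and to miR-212-3p. The smallest p belonged to miR-129-5p, a regulator of neuronal excitability, at 2898, 3017 and 2878 in CMS, against 1836, 2283 and 2106 in Control (limma adjusted p = 0.0541). All 3 CMS values were above all 3 Control values.

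In rat neurons the miRNA cluster of the Dlk1-Dio3 region is induced by the activity-linked factor Mef2. From that region miR-381-3p was at 2466, 3449 and 3366 in CMS, against 4592, 5160 and 4567 in Control (limma adjusted p = 0.0819). Other listed miRNAs of the region went both ways. The log2 change was 0.43 for miR-379-5p, 0.32 for miR-329-3p, 0.26 for miR-134-5p and 0.41 for miR-134-3p. It was -0.45 for miR-410-3p and -0.01 for miR-485-5p. The 3p product of the miR-129-2 hairpin, miR-129-2-3p, was at 743, 749 and 1091 in CMS, against 575, 429 and 342 in Control (limma adjusted p = 0.0914). Among miRNAs with a mean of 10 or more alone, it passed (limma adjusted p = 0.0475). For miR-181a-5p, which in rat neurons represses the AMPA receptor subunit GluA2, values were 4501, 3371 and 3555 in CMS, against 2953, 1730 and 1725 in Control (limma adjusted p = 0.114). Of the list, miR-129-5p, miR-381-3p, miR-129-2-3p and miR-181a-5p were named for their small p. Without Control 1, 3 of the list members counted passed, in a fit where 55 of 645 miRNAs passed (8.53%). They were miR-129-5p (limma adjusted p = 0.0385), miR-181a-5p (limma adjusted p = 0.0309) and miR-384-5p (limma adjusted p = 0.0373).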

How the data were processed

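Per the labels' protocols, miRNA libraries from total mPFC RNA of 6 rats were sequenced on an Illumina NextSeq. Novoalign 2.07.11 is named in the submitters' processing notes; for trimming, build, annotation and normalization, no source used here gives a method. The deposited values are treated as a score, a normalized expression value that the authors rounded to whole numbers. Library sums differ by 3.72%. Low values, with a group mean from 1 to 8, had a replicate variance of 0.54 times the mean in CMS (191 miRNAs) and 0.491 times in Control (175 miRNAs), less than counted reads give on average. Depth is therefore unknown. Blank cells were taken as 0.

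Groups came from the titles. Levels were tested with limma 3.58.1 (R 4.3.3) and its mean-variance trend on log2(value + 1), where a miRNA reached 1 in 3 or more libraries. P-values were adjusted by Benjamini-Hochberg over all miRNAs tested, and 0.05 was the threshold. The added 1 shrinks log2 changes of low miRNAs. Arm ratios, log2 of (3p + 1) over (5p + 1), were fitted the same way over the 144 hairpins whose arms both passed the filter. Sums and ratios between the hairpins were compared with exact permutation tests. The fits were tried on simulated data. The members and lists were chosen with earlier results of these data known.

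Named miRNAs are the 4 members, the 5 closest in pattern to miR-132-3p and to miR-212-3p, the 4 activity-linked ones with the smallest p, and the cell type markers. Chosen after values were seen were miR-384-5p, the other listed miRNAs of the Dlk1-Dio3 region and the examples with values. Predicted miRNAs, whose names also begin with rno-, did not count as annotated. No other entry of the table had the values of a member within 1%. Mature sequences matched 4 of 4 members and 625 of 694 annotated miRNAs by name. Alternatives were pseudocounts of 0.1 and 10, no filter, a minimum mean of 10, rescaling by a mean of log ratios after trimming 30% of the ratios and 5% of the levels at either end, quantile normalization, no trend, annotated miRNAs only, leaving out each library, a replicate block and, added after the data were seen, an arm-ratio trend over the level of both arms.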

Additional observations from a re-analysis of the deposited data

How the results depend on the processing

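No arm passed the threshold under any alternative tried. Log2 changes, CMS minus Control, over the libraries left out ran from -0.060 to 0.24 for miR-132-3p, -0.70 to -0.17 for miR-132-5p, -0.12 to 0.43 for miR-212-3p and -0.080 to 0.13 for miR-212-5p. Trimmed-mean rescaling gave -0.050 for miR-132-3p, and quantile normalization gave -0.023 for miR-212-3p. The miR-132 arm ratio stayed above 0, at 0.31 to 0.64 over the libraries left out and 0.44 to 0.61 otherwise, and passed only without Control 1; the miR-212 arm ratio ran from -0.059 to 0.30. Over the libraries left out, the log2 difference of miR-212 to miR-132 ran from -0.085 to 0.19 on the 3p arms, that of the shared-seed sum from -0.042 to 0.26 (-0.042 with trimmed-mean rescaling) and that of the sum of 4 arms from -0.21 to 0.13. The cause of these turns was not tested.

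The counts used as background moved more. The 27 miRNAs became 11 with annotated miRNAs only and 2 to 55 over the libraries left out. The 11 hairpins became 7 with a pseudocount of 0.1, 36 with 10, 7 with no filter, 26 with a minimum mean of 10 and 1 to 46 over the libraries left out. Of the activity-linked list members counted, 1 passed with a minimum mean of 10 and 0 to 3 over the libraries left out. Each group's libraries carry the numbers 1 to 3, and whether these mark pairs is unknown. Deviations of same-numbered libraries correlated at -0.11, -0.02 and -0.05. No CMS library correlated best with the Control library of its own number. With so few libraries per group these correlations cannot decide the question. With the replicate block 1 miRNA and 22 hairpins passed, no member among them. Depth is unknown, so its part could not be weighed.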
